A study of Bos taurus with 12 samples.

Results

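ACTB and GAPDH are 2 of the 22372 genes in the deposited gene table, and they were taken by identifier: ENSBTAG00000026199 for ACTB and ENSBTAG00000014731 for GAPDH. Both are widely used to scale expression measurements, and the question here was how steady they were when adipogenic media lost an inducer. The qPCR of the paper was scaled to UXT, RPL19 and RPLP0 and not to ACTB or GAPDH. The identifiers could not be checked against a name. The reference table of bovine RefSeq genes lists both symbols but no Ensembl identifier, so the symbols are those given with the identifiers, and no position or sequence is printed. The other listed genes of the actin cytoskeleton, of glycolysis and of cell type markers could not be found by name for the same reason, and the labelled cell type was therefore not checked against its markers.

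The cells were bovine stromal vascular cells (SVC) from subcutaneous fat, labelled MSC, which were grown without serum and differentiated for 12 days in a serum-free medium. The full medium, rDM, contained insulin (10 μg/mL), rosiglitazone (5 μM), hydrocortisone (25 nM) and progesterone (17 nM). In rDM 0% Ins the insulin was left out, in rDM 0% Ros the rosiglitazone, and in rDM 0% HC/PR both hormones. Each medium was used on cells of 3 donors (A, B and C), which gave 12 libraries. None carried a transgene or deletion, and the labels give no age or sex for a donor. The paper names Belgian Blue cattle as the source of the SVC. Its sections differ on the sex and age range of the donors and do not tie them to donors A, B and C. Each donor was also its own batch of mRNA extraction, so donor and batch cannot be told apart. Estimated reads per library came to between 424759 and 1153853 in rDM, 302754 and 578595 in rDM 0% Ins, 333466 and 537936 in rDM 0% Ros, and 388130 and 631624 in rDM 0% HC/PR.

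ACTB encodes cytoplasmic beta-actin, which polymerises into the filaments of the cytoskeleton. Precursor cells are rich in stress fibres, and these are known to be rebuilt into a cortical network as a cell rounds up and fills with lipid. GAPDH encodes the glycolytic enzyme that oxidises glyceraldehyde-3-phosphate, a step downstream of the glucose uptake that insulin raises in adipocytes. Rosiglitazone activates PPARγ, the nuclear receptor that drives adipogenesis, while hydrocortisone and progesterone bind the glucocorticoid receptor. Neither cell shape nor sugar metabolism was measured here.

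In rDM, ACTB was at 414, 407 and 524 CPM (read counts scaled to a common library total, after the authors' batch correction) in donors A, B and C. Without insulin it was at 558, 909 and 796 CPM, so that all 3 libraries lay above all 3 rDM libraries. Such a separation from rDM was seen in 15.4% of the 9267 genes tested. Without rosiglitazone ACTB was at 698, 496 and 745 CPM, which overlaps with rDM because the library of donor B fell below the highest rDM library. Without HC/PR it was at 455, 761 and 371 CPM, the widest spread of the 4 media. In bulk RNA, more cells of a type and more RNA per cell cannot be told apart, and these levels are relative to the library total.

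GAPDH behaved differently. In rDM it was at 2752, 1050.4 and 1359.7 CPM in donors A, B and C. Without insulin it was at 1796, 1804 and 1317 CPM, the narrowest spread of the 4 media for this gene. Removing rosiglitazone gave 933, 1420.1 and 3768 CPM, and removing HC/PR gave 1345, 3887 and 1719.9 CPM. The library with the most GAPDH was thus in a different medium in each donor. It was rDM in donor A, rDM 0% HC/PR in donor B and rDM 0% Ros in donor C, at 1.53, 2.15 and 2.19 times the next highest library of the same donor. These 3 libraries differed in depth, with 1153853, 388130 and 402734 estimated reads, and their depth's part in the result was not tested.

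**Figure D1:**
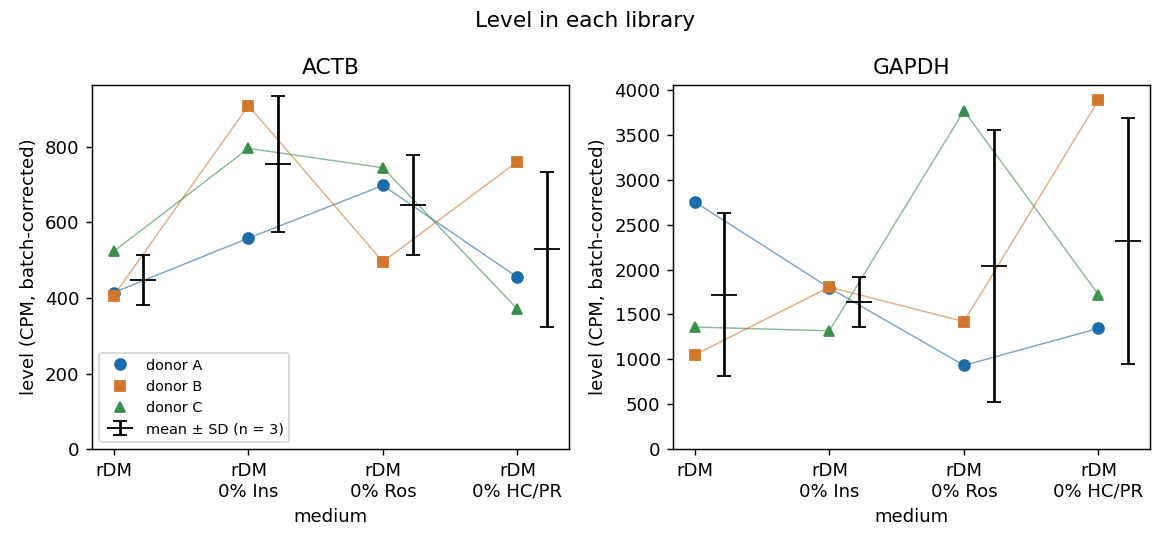
Level of ACTB (left) and GAPDH (right) in CPM in each of the 12 libraries by medium, with points joined by donor and the mean ± SD of 3 donors in black. ACTB was lowest on average in rDM and highest without insulin, whereas GAPDH was highest in a different medium in each donor.

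Counting error was small beside this spread. ACTB rested on 162 to 459 reads per library and GAPDH on 389 to 3048. Counting alone would give an SD of 0.0885 on the log2 scale for ACTB and 0.0531 for GAPDH, against 0.43 and 0.67 measured over the 12 libraries. The highest GAPDH level, 3887 CPM, had an exact Poisson interval of 3690 to 4091 CPM (95%), and the level in rDM of the same donor, 1050.4 CPM, one of 974 to 1131 CPM. These intervals cover counting error only, since copies made by PCR are not independent molecules and the reads are those left after batch correction. Some reads of ACTB may belong to the near-identical gamma-actin gene and some of GAPDH to its processed copies, which the counting could split.

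The mean level of ACTB was 448 ± 65.5 CPM in rDM, 529 ± 205 CPM in rDM 0% HC/PR, 646 ± 132 CPM in rDM 0% Ros and 754 ± 179 CPM in rDM 0% Ins (SD, n = 3 donors). Neighbours in this order did not differ beyond their spread. On the log2(CPM + 1) scale the difference was -0.22 from rDM 0% Ins to rDM 0% Ros (95% interval -0.79 to 0.36) and -0.33 from there to rDM 0% HC/PR (-0.91 to 0.24), with adjusted p of 0.817 and 0.690 in limma. The lowest step, from rDM to rDM 0% HC/PR, was 0.18 (-0.40 to 0.76), with an adjusted p of 0.998 in limma. The extremes of the order, rDM and rDM 0% Ins, did not pass the threshold either (adjusted p = 0.248).

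For GAPDH the mean was 1639 ± 279 CPM in rDM 0% Ins, 1721 ± 907 CPM in rDM, 2040.2 ± 1516 CPM in rDM 0% Ros and 2317 ± 1372 CPM in rDM 0% HC/PR (SD, n = 3 donors). On the log2 scale rDM took the lowest place instead of rDM 0% Ins, as the mean CPM of rDM was raised by donor A. No pair of media differed for GAPDH in limma, with adjusted p between 0.827 and 0.998 over the 6 pairs.

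The paired changes against rDM were tested with limma on log2(CPM + 1) over all 9267 genes, each donor serving as its own block and p-values adjusted by Benjamini-Hochberg over all of them. Without insulin ACTB was higher in 3 of 3 donors, by 0.43, 1.16 and 0.60 on the log2 scale in donors A, B and C. Being higher in every donor was common in this comparison, at 23.8% of all genes. The mean change was 0.73 (standard error 0.27, 95% interval 0.15 to 1.31), or 1.66-fold, and it did not pass the threshold (limma, adjusted p = 0.248). Of all genes, 1.51% were called in this comparison, and 6.86% had a smaller p than ACTB. The median gene was itself 0.19 higher without insulin, and relative to this shift ACTB was 0.54 higher.

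Without rosiglitazone ACTB was again higher in 3 of 3 donors, by 0.75, 0.29 and 0.51, where 23.4% of all genes were. The mean change was 0.51 (standard error 0.27, 95% interval -0.06 to 1.09) with an adjusted p of 0.360 in limma, in a comparison that called 5.07% of genes. Relative to the median gene, which was 0.10 higher, the change of ACTB was 0.41. Without HC/PR the donors differed in direction, at 0.13, 0.90 and -0.50, and the mean was 0.18 (95% interval -0.40 to 0.76, adjusted p = 0.998 in limma), where 0.0216% of genes were called. The 3 comparisons share their rDM libraries, so the values of ACTB without insulin and without rosiglitazone are not independent of each other.

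The deposited names carry a library number, 1 or 2, which was taken here as the sequencing pool. By it the libraries fell into 2 pools, with donor A wholly in the first and donor C wholly in the second. For donor B, rDM and rDM 0% Ins were in the first pool and the other two libraries in the second. Every change without insulin was thus measured within a pool, whereas the changes of donor B without rosiglitazone and without HC/PR cross the pools. Within pools, ACTB without rosiglitazone was 0.75 higher in donor A and 0.51 higher in donor C, and without HC/PR it differed by 0.13 and -0.50.

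GAPDH changed by -0.62, 0.78 and -0.05 without insulin in donors A, B and C, by -1.56, 0.43 and 1.47 without rosiglitazone, and by -1.03, 1.89 and 0.34 without HC/PR. Donor A was lower than its rDM library in all 3 deprived media, and donor B was higher in all 3. The 3 changes of a donor share its rDM library and are not independent. That library had the highest GAPDH of donor A (2752 CPM) and the lowest of donor B (1050.4 CPM). The mean changes were 0.04 (95% interval -1.02 to 1.10), 0.11 (-0.95 to 1.17) and 0.40 (-0.66 to 1.46), with adjusted p of 0.984, 0.941 and 0.998 in limma. With TMM, a scaling that sets the bulk of genes equal between libraries, the first 2 turned to -0.20 and -0.04, again short of the threshold. With the sequencing pool added to the donor block, the changes without rosiglitazone and without HC/PR became -0.15 and 0.13. Within pools, GAPDH differed by -1.56 in donor A and 1.47 in donor C without rosiglitazone, and by -1.03 and 0.34 without HC/PR. None of these shows that GAPDH was unchanged. A 2-fold rise without insulin, rosiglitazone or HC/PR lay inside the intervals, and a 2-fold fall lay inside that without insulin. Of the 6 intervals for both genes, only that of ACTB without HC/PR lay wholly within 2-fold in either direction.

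**Figure D2:**
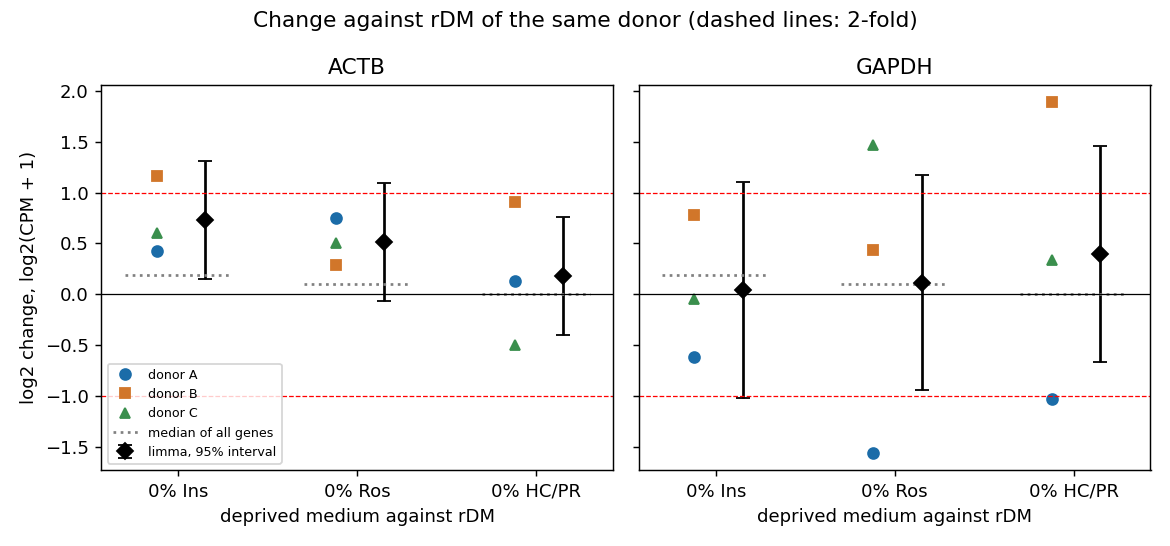
Log2 change of ACTB (left) and GAPDH (right) in each deprived medium against rDM of the same donor, with coloured points for donors, black diamonds for the limma estimate with its 95% interval, dotted lines for the median of all genes and dashed lines at 2-fold. ACTB was higher in 3 of 3 donors without insulin and without rosiglitazone, while the GAPDH points of a medium lie on both sides of 0.

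Over the 4 media together, the test of any effect of the medium gave an adjusted p of 0.344 for ACTB and 0.940 for GAPDH (limma F test), where 4.65% of genes were called. An exact permutation of the media within donors, with 576 arrangements and a smallest possible p of 0.0017, gave p = 0.247 for ACTB and 0.922 for GAPDH. The medium accounted for 46.5% of the variance of ACTB between libraries on the log2 scale and for 5.95% of that of GAPDH. Donors took 5.39% and 2.41% in this table, which had been corrected for them. What was left, 48.1% for ACTB and 91.6% for GAPDH, was the part that neither donor nor medium accounted for. It holds differences between donors in their change by medium together with any other difference between libraries.

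Over the 12 libraries most abundant genes varied less than GAPDH, whereas between the means of the 4 media most varied more. Over the 12 libraries ACTB ranged 2.45-fold, from 371 CPM in rDM 0% HC/PR of donor C to 909 CPM in rDM 0% Ins of donor B. GAPDH ranged 4.17-fold, from 933 CPM in rDM 0% Ros of donor A to 3887 CPM in rDM 0% HC/PR of donor B. Within a donor, the SD of the log2 level over the 4 media was 0.46 ± 0.11 for ACTB and 0.72 ± 0.075 for GAPDH (SD, n = 3 donors). Among the 314 other genes with a mean of at least 500 CPM, 68.8% varied less than ACTB and 84.1% less than GAPDH, as a description with no test. By the range of the 4 medium means the order of the pair turned, with 61.15% of abundant genes varying less than ACTB and 35.35% less than GAPDH. A medium mean averages over donors, and the GAPDH changes against rDM had both signs in each deprived medium. Without rosiglitazone they were -1.56 in donor A and 1.47 in donor C. The narrow range of its means thus does not show that GAPDH was steady between media. The median SD of the 315 genes was 0.31 (quartiles 0.20 and 0.49), so ACTB lay between the median and the upper quartile and GAPDH above the upper quartile.

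The place of ACTB depended on the scaling. The TMM factors ran from 0.869 to 1.23. ACTB lay above its geometric mean in the 5 libraries with a TMM factor above 1 and below it in the 7 libraries with a factor below 1. After TMM scaling it ranged 1.88-fold, with an SD of 0.30, and 32.7% of abundant genes varied less. GAPDH ranged 4.43-fold after TMM scaling, and 84.8% of abundant genes varied less.

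**Figure D3:**
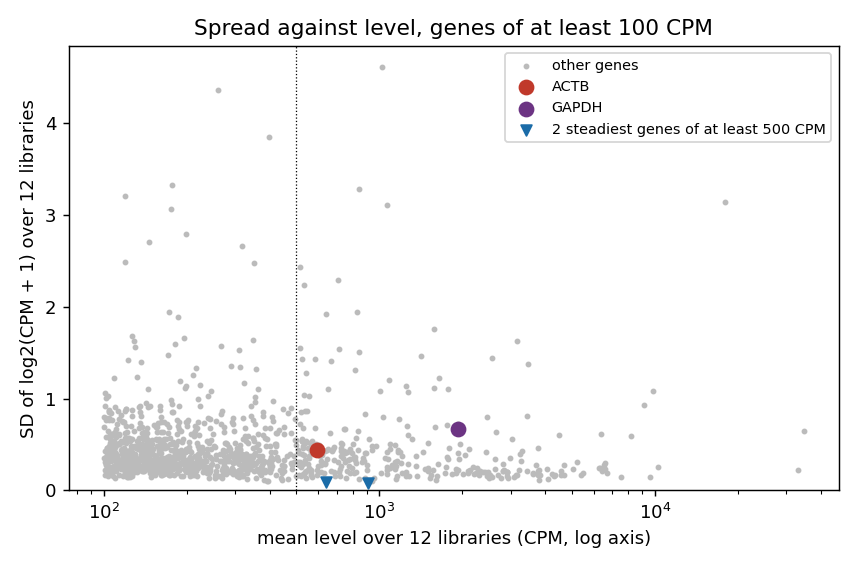
SD of log2(CPM + 1) over the 12 libraries against the mean level in CPM (log axis) for genes with a mean of at least 100 CPM, with ACTB, GAPDH and the 2 steadiest genes of at least 500 CPM (right of the dotted line) marked. GAPDH, with an SD of 0.67, lies above most genes of its level, and ACTB, with an SD of 0.43, lies nearer to them.

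By measured spread, the steadiest genes with a mean of at least 500 CPM were ENSBTAG00000025564 and ENSBTAG00000027787, whose names were not paired here. ENSBTAG00000025564 lay between 836 and 986 CPM in the 12 libraries, with an SD of 0.0845 on the log2 scale. ENSBTAG00000027787 lay between 587 and 726 CPM, with an SD of 0.0896. They had the lowest SD of 315 genes, so their steadiness in these libraries is a choice and not a finding.

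Pearson correlation of log2(CPM + 1) over the 12 libraries was used to find the genes most like each of the pair, among 4131 genes with a mean of at least 20 CPM. The libraries share donors and a batch correction, and with this many genes high values are found by search, so the correlations are a description. ACTB was followed most closely by ENSBTAG00000016441 (r = 0.969) and ENSBTAG00000033217 (r = 0.963). The first was at 29.2 ± 4.75 CPM in rDM and 56.3 ± 19.1 CPM without insulin, and the second at 186 ± 21.9 CPM and 269 ± 41.8 CPM (SD, n = 3). Both thus had the order of ACTB, with rDM lowest and rDM 0% Ins highest. Neither passed the threshold in any comparison (limma, adjusted p between 0.309 and 0.998).

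GAPDH was followed by ENSBTAG00000000894 (r = 0.959) and ENSBTAG00000023659 (r = 0.907). ENSBTAG00000000894 ranged from 214 to 662 CPM, and ENSBTAG00000023659 from 19.9 to 426 CPM, a 21.4-fold range. In each donor both were highest in the library where GAPDH was highest. There ENSBTAG00000000894 was at 461 CPM in rDM of donor A, 662 CPM in rDM 0% HC/PR of donor B and 632 CPM in rDM 0% Ros of donor C, and ENSBTAG00000023659 at 284, 426 and 391 CPM. Neither passed the threshold in any comparison (limma, adjusted p between 0.786 and 0.998).

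ACTB and GAPDH were also set against each other, since their ratio is the same whatever total a library is scaled to. The log2 ratio of ACTB to GAPDH ran from -2.73 in rDM of donor A to -0.42 in rDM 0% Ros of donor A, a 4.97-fold range that lies within a single donor. A target gene compared between these 2 libraries would therefore differ 4.97-fold depending on which of the pair it was scaled to. Without insulin the ratio rose in 3 of 3 donors, by 1.05, 0.38 and 0.65 (mean 0.69 ± 0.33, SD, n = 3). Without rosiglitazone the changes were 2.31, -0.15 and -0.96 (mean 0.40 ± 1.71, SD, n = 3), and without HC/PR they were 1.17, -0.98 and -0.84 (mean -0.22 ± 1.202, SD, n = 3). In these 2 media donor A moved against donors B and C. The changes of a donor share its rDM library, and the ratio in rDM of donor A was the lowest of the 12 libraries. Over the 4 media the ratio did not pass the exact permutation test within donors (p = 0.536), and 3 donors alone allow no two-sided sign test below 0.25.

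**Figure D4:**
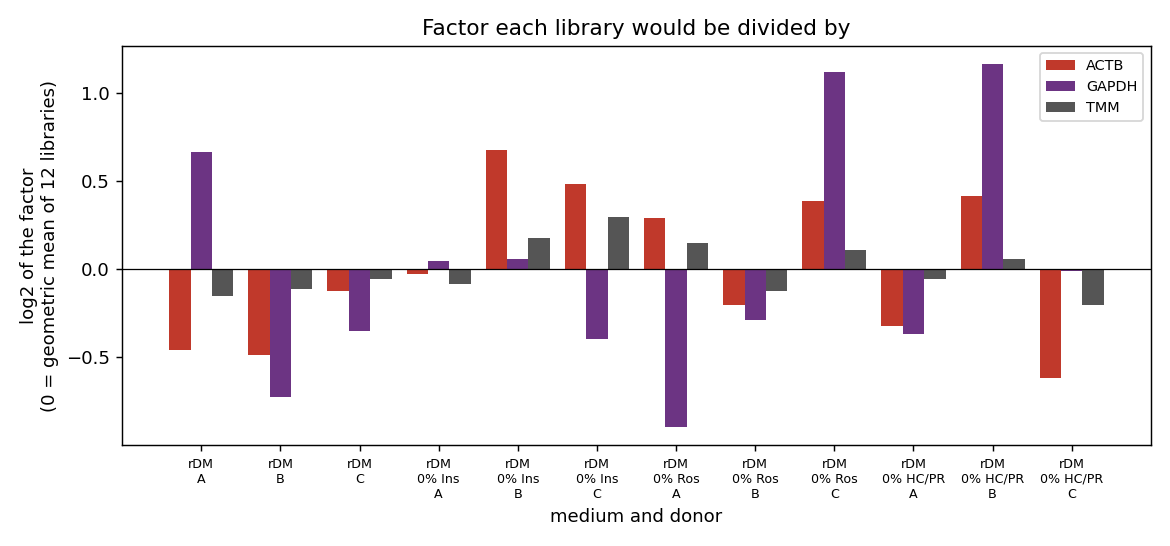
Log2 of the factor by which each of the 12 libraries would be divided if it were scaled to ACTB, to GAPDH or by TMM, with 0 as the geometric mean over libraries. ACTB and TMM factors point the same way in all 12 libraries, whereas ACTB and GAPDH factors point opposite ways in 4 of them (rDM, rDM 0% Ins and rDM 0% Ros of donor A, rDM 0% Ins of donor C). In rDM 0% Ins of donor A both factors lay close to 1, at 0.979 for ACTB and 1.034 for GAPDH.

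Finally, the libraries were scaled to each gene in turn, and all genes were tested again with limma at an adjusted p under 0.05, the scaling genes themselves being left out. With library size, 61 genes were higher and 79 lower without insulin. This number rests on the variance trend used in limma, since without the trend 2 genes were called in this comparison and 210 in place of 470 without rosiglitazone, and the splits and shared calls by scaling were computed with the trend alone. Scaled to ACTB, 8 were higher and 168 lower, so that the share of lower genes went from 56.4% to 95.5%. The median gene then fell by 0.47 on the log2 scale, since the level of every gene was set against the higher ACTB of that medium. Scaled to GAPDH, 9 were higher and 12 lower. With TMM, 37 were higher and 108 lower, a share of 74.5%. Of the 140 genes called by library size, 80 were called in the same direction with ACTB, 15 with GAPDH and 113 with TMM.

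Without rosiglitazone, 167 genes were higher and 303 lower by library size. Scaling to ACTB gave 41 higher and 390 lower, with the median gene at -0.37, and scaling to GAPDH gave 22 higher and 101 lower. The geometric mean of both genes, a common way of combining references, gave 36 higher and 200 lower. The share of lower genes was 64.5% by library size, 73.0% with TMM, 90.5% with ACTB, 82.1% with GAPDH and 84.7% with both. Of the 470 genes called by library size, 319 were called in the same direction with ACTB, 115 with GAPDH, 211 with both and 430 with TMM.

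Without HC/PR, with all donors, there were 2 calls by library size, 4 with ACTB, 4 with GAPDH, 5 with both and 1 with TMM (limma). With donor A left out the calls were 36 with GAPDH and 18 with both, and with no donor block there were 11 with GAPDH. The number of genes with an unadjusted p under 0.05 was 498 by library size and 170 with GAPDH. Scaling to GAPDH also widened the error of the other genes, since the median standard error of a log2 change was 0.62 by library size, 0.63 with ACTB, 0.75 with both genes and 0.97 with GAPDH.

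Leaving out a donor moved the number of calls. Scaled to ACTB, the calls without insulin went from 176 to 64, 50 and 24 genes with donor A, B or C left out, and by library size from 140 to 62, 24 and 9 genes. Of those scaled to ACTB, 90.6%, 90.0% and 91.7% were lower, a majority that follows from dividing by a gene that was higher in all 3 donors and says nothing of the stability of the direction. Scaled to GAPDH, the 21 calls without insulin became 47 without donor A, 3 without donor C and 0 without donor B, where 154 of 8518 genes had an unadjusted p under 0.05. Without rosiglitazone the 123 calls became 261 without donor A, 39 without donor B and 54 without donor C. The fits with no donor block called 296 and 742 genes by library size without insulin and without rosiglitazone, 365 and 637 with ACTB, and 43 and 185 with GAPDH.

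**Figure D5:**
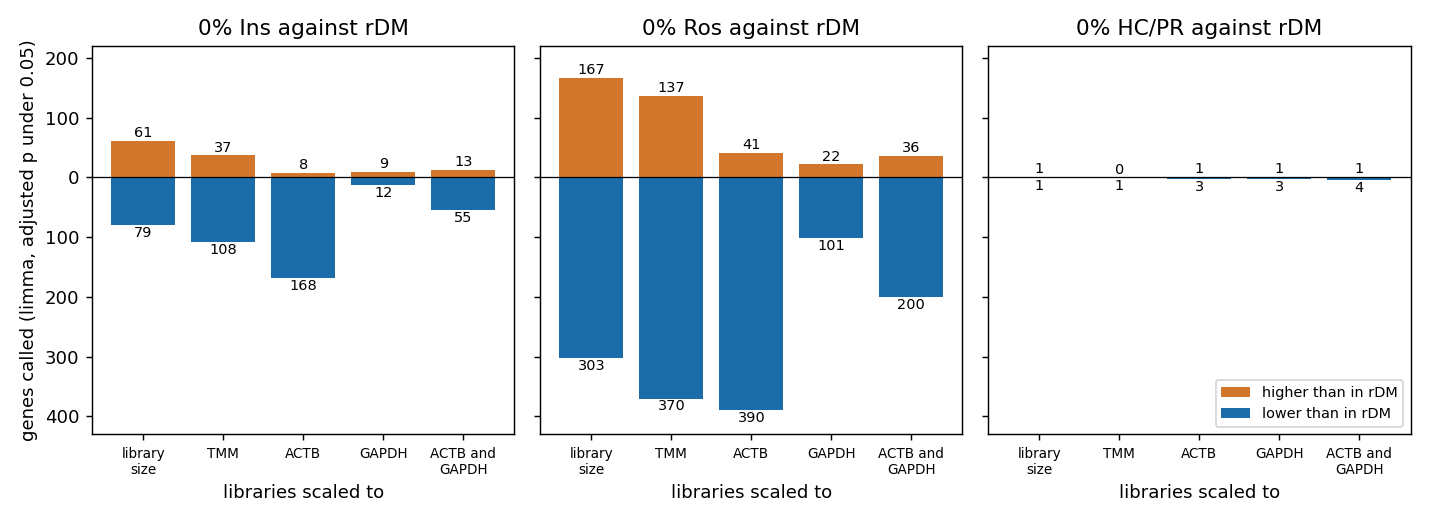
Number of genes called higher (up) or lower (down) than in rDM in each deprived medium (limma, adjusted p under 0.05) with libraries scaled to library size, TMM, ACTB, GAPDH or the geometric mean of ACTB and GAPDH. Scaled to ACTB, 168 of 176 calls without insulin are lower, and scaled to GAPDH 21 calls are left.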

How the data were processed

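The authors mapped Nanopore reads of PCR-amplified cDNA to the bovine transcriptome (ARS-UCD1.2) with Minimap2 and quantified them with Salmon. They deposited estimated counts of transcripts as Salmon gave them, uncorrected (TPM, also in these deposited files, was not used), and 1 table of CPM per gene after tximport and ComBat-seq. The study's text does not say whether ComBat-seq was given the medium. The CPM values are whole multiples of 1 read (100% within 0.01), and the 3-read limit is 2.71 to 10.2 CPM.

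Genes reaching 5 CPM in 3 or more libraries were tested with limma 3.58.1 (R 4.3.3; variance trend, pseudocount 1, donor block, all 12 libraries). edgeR 4.0.16 and DESeq2 1.42.0 were run on recovered reads as alternatives, and the scripts were tested on simulated data. Detection in the simulated comparison without rosiglitazone was low. For genes set to differ 2-fold it was 1% in limma, 2% in edgeR and 7% in DESeq2. For genes set to differ 4-fold it was 44%, 50% and 58% in the same order. A gene short of the threshold may thus still differ 2-fold. Correction across libraries came before every test, so their spread is not that of independent libraries. Same-donor libraries deviated together in the uncorrected transcripts (lowest correlation 0.194 over 18 pairs) but not in the batch-corrected genes (highest 0.041), tables that differ in both features and correction. Members, lists and tests were chosen with earlier results of these data known. The rule for naming genes was the pair itself, the 2 genes most correlated with each and the 2 of lowest SD. Of 95 listed symbols (qPCR references, cytoskeleton, glycolysis, markers), 0 were paired with an identifier, so these lists, and uncorrected transcripts of both genes, were not analysed here.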

Additional observations from a re-analysis of the deposited data

How the results depend on the processing

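ACTB and GAPDH were short of the threshold under every alternative run, in each comparison and over the 4 media. With 3 donors and intervals this wide that says nothing of the stability of their levels. Across tools, scalings, filters, pseudocounts and left-out libraries or donors, adjusted p for ACTB lay between 0.077 and 0.615 without insulin, 0.11 and 0.72 without rosiglitazone, and 0.865 and 1 without HC/PR, and for GAPDH at 0.434 or above. ACTB stayed higher in all 22 alternatives without insulin (0.49 to 0.91) and in all 22 without rosiglitazone (0.34 to 0.82). Without HC/PR it ran from -0.1815 (without donor B) to 0.5184 (without donor C), and it was -0.1482 when the rDM 0% HC/PR library of donor B was left out.

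The sign of the GAPDH change turned in 9 of 22 alternatives without insulin, 7 of 22 without rosiglitazone and 3 of 22 without HC/PR. Outside the fits that left out a library or donor, the change without HC/PR ran from 0.13 to 0.40. Without insulin the GAPDH change was -0.2867 in edgeR and -0.2822 in DESeq2 with the replicate block. It was -0.2707 in DESeq2 with no replicate block and -0.1968 with TMM. Without rosiglitazone it was -0.1522 with the sequencing pool added to the block and -0.03697 with TMM. With a library or donor left out it ran from -0.3854 (without rDM of donor B) to 0.6662 (without rDM of donor A) without insulin, from -0.5865 (without rDM 0% Ros of donor C) to 0.9523 (without donor A) without rosiglitazone, and from -0.3468 (without donor B) to 1.113 (without donor A) without HC/PR. The causes were not tested.

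The SD of ACTB within a donor was 0.3122 after TMM. The share of abundant genes that varied less than ACTB was 32.7% after TMM and 62.97% to 72.64% with a donor left out. By the range of the 4 medium means in place of the SD, 61.15% varied less than ACTB and 35.35% less than GAPDH. These means average over donors whose GAPDH changes had both signs. ACTB gave no value among genes of at least 1000 CPM, since its mean is lower.

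The pairing by donor moved the numbers of calls but no call of ACTB or GAPDH. With no replicate block, library size gave 296 calls without insulin and 742 without rosiglitazone, ACTB gave 365 without insulin, GAPDH gave 43, 185 and 11 in the 3 comparisons, and both genes together gave 3 without HC/PR. limma without a variance trend, chosen after seeing the data, called 2, 210 and 1 genes by library size. TMM, also added then, called 1 without HC/PR. A pseudocount of 10 gave 4 calls by library size without HC/PR, and 105 with both genes without insulin.

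With a donor left out, the calls by library size ranged between 9 and 62 for insulin, 201 and 326 for rosiglitazone and 1 and 4 for HC/PR. With ACTB they were, in the same order, 24 to 64, 169 to 386 and 1 to 2, with GAPDH 0 to 47 (154 genes with an unadjusted p under 0.05 at the 0), 39 to 261 and 1 to 36, and with both genes 42 to 50, 153 to 219 and 9 to 18. The planned check on uncorrected transcripts and the gene lists were not run, since no identifiers were paired with symbols. ACTB rested on 162 to 459 reads per library and GAPDH on 389 to 3048, and each medium on 3 donors.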
